A study of Bos taurus with 12 samples.

Results

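The genes described here build the contacts of embryonic cells with each other and with the matrix: tight junctions, adherens junctions, desmosomes, gap junctions and integrins. They were taken by symbol from the probe sets that name exactly 1 gene (claudins, JAM genes and F11R, TJP scaffolds, numbered cadherins and catenins, desmosomal cadherins and plakophilins, connexins, and all ITGA and ITGB symbols). Each gene was represented by its probe set of highest mean over the 12 arrays. This gave 68 genes, read from 109 probe sets, of 9155 genes named on the array. There were 17 membrane proteins of tight junctions, 2 tight junction scaffolds, 12 cadherins and catenins, 8 desmosomal genes, 6 connexins, 12 integrin alpha chains, 7 integrin beta chains and 4 further genes that the ITGB symbols took in. The cadherins and catenins were grouped as adherens junction genes by symbol alone, and whether each belongs to that junction was not checked. Occludin (OCLN), desmoplakin (DSP) and ITGA6 were not named in the annotation used here.

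In the early embryo, E-cadherin and its catenins hold blastomeres together as the ball of cells compacts. The outer cells then become the trophectoderm, an epithelium sealed by tight junctions and strengthened by desmosomes, which pumps fluid inward to open the blastocyst cavity. Gap junctions pass small molecules between cells, and integrins, dimers of an alpha and a beta chain, bind the cell to matrix proteins such as fibronectin and laminin.

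RNA came from embryos of Japanese Black cattle that were matured, fertilised and grown in vitro, with semen of a Japanese Black bull. Adult cows gave ovaries at an abattoir, and prepubertal heifers aged 9 to 12 months gave ovaries on farms by a spay device. The 4 groups were 8-16-cell embryos of adult or prepubertal donors, collected on day 3 (70 to 72 h after insemination) in pools of 50, and expanded blastocysts of either donor group, collected before hatching on day 7 in pools of 10, with 3 arrays in each group. All embryos had been picked for normal morphology, and all groups shared the same culture scheme, which held bovine serum after the first days. Sharing of animals, sires or culture days among pools is left unstated by the labels. The p-values therefore refer only to spread between these pools, some of which may be technical. That spread was estimated mostly from all probe sets of like level (196 prior against 8 residual degrees of freedom), and little from each gene's own pools. A blastocyst pool holds outer and inner cells together, so a higher share of a cell type and more RNA per cell cannot be told apart.

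Signals are given as log2(signal + 16), and every difference is a difference of such values, which understates the change of dim genes. The level counted as background on an array was its highest signal among 27 control probe sets for Bacillus subtilis genes, and a gene under that level is called not above background. That level lay between 122 and 424 on 11 arrays and at 1664 on prepubertal 8-16-cell replicate 3, where 5.23% of all probe sets were above it. Of the genes described here, 2 were above background on that array, against 12 to 30 on the others, and CDH1, CTNNA1, CTNNB1 and F11R each had their lowest value of all arrays there. The called stage differences and the donor differences named for 8-16-cell embryos are therefore given with and without it. The hybridization controls of the prepubertal 8-16-cell arrays were 3.03-fold as bright as those of the adult ones (exact two-sided permutation test, p = 0.1, the smallest possible), and in blastocysts the ratio was 1.07 (p = 0.9). The stage labels were borne out by markers: 4 of 7 measured trophectoderm markers (KRT8, KRT18, KRT19, IFNT2) were called higher in blastocysts, averaged over donors, and 5 of 7 oocyte markers (GDF9, BMP15, ZP2, ZP4, KPNA7) were lower, with 0 in the opposite direction.

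Most of the 68 genes were dim. There were 14 that lay at background on all 12 arrays, which is 20.6% of them against 24.9% of all probe sets, and 39 were above background on at most 2 arrays. ITGB5 was the single gene above background on every array. Of the adult groups, 8-16-cell embryos had 9 genes above background on all 3 arrays and blastocysts 12; of the prepubertal groups, 8-16-cell embryos had 1 and blastocysts 15. In that order these are 13.2%, 17.6%, 1.47% and 22.1% of the genes, against 12.6%, 14.1%, 3.69% and 15.9% of all probe sets. The 9 of adult 8-16-cell embryos were CDH1, CDH3, CTNNA1, CTNNB1, DSC2, F11R, ITGAE, ITGB5 and ITGB1BP1. CLDN6, CLDN12, ITGB1, PKP2 and TJP3 were above background on every array of both blastocyst groups and on none to 2 arrays of each 8-16-cell group. The map of all genes by array shows these rows against a background that is mostly blue.

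**Figure D1:**
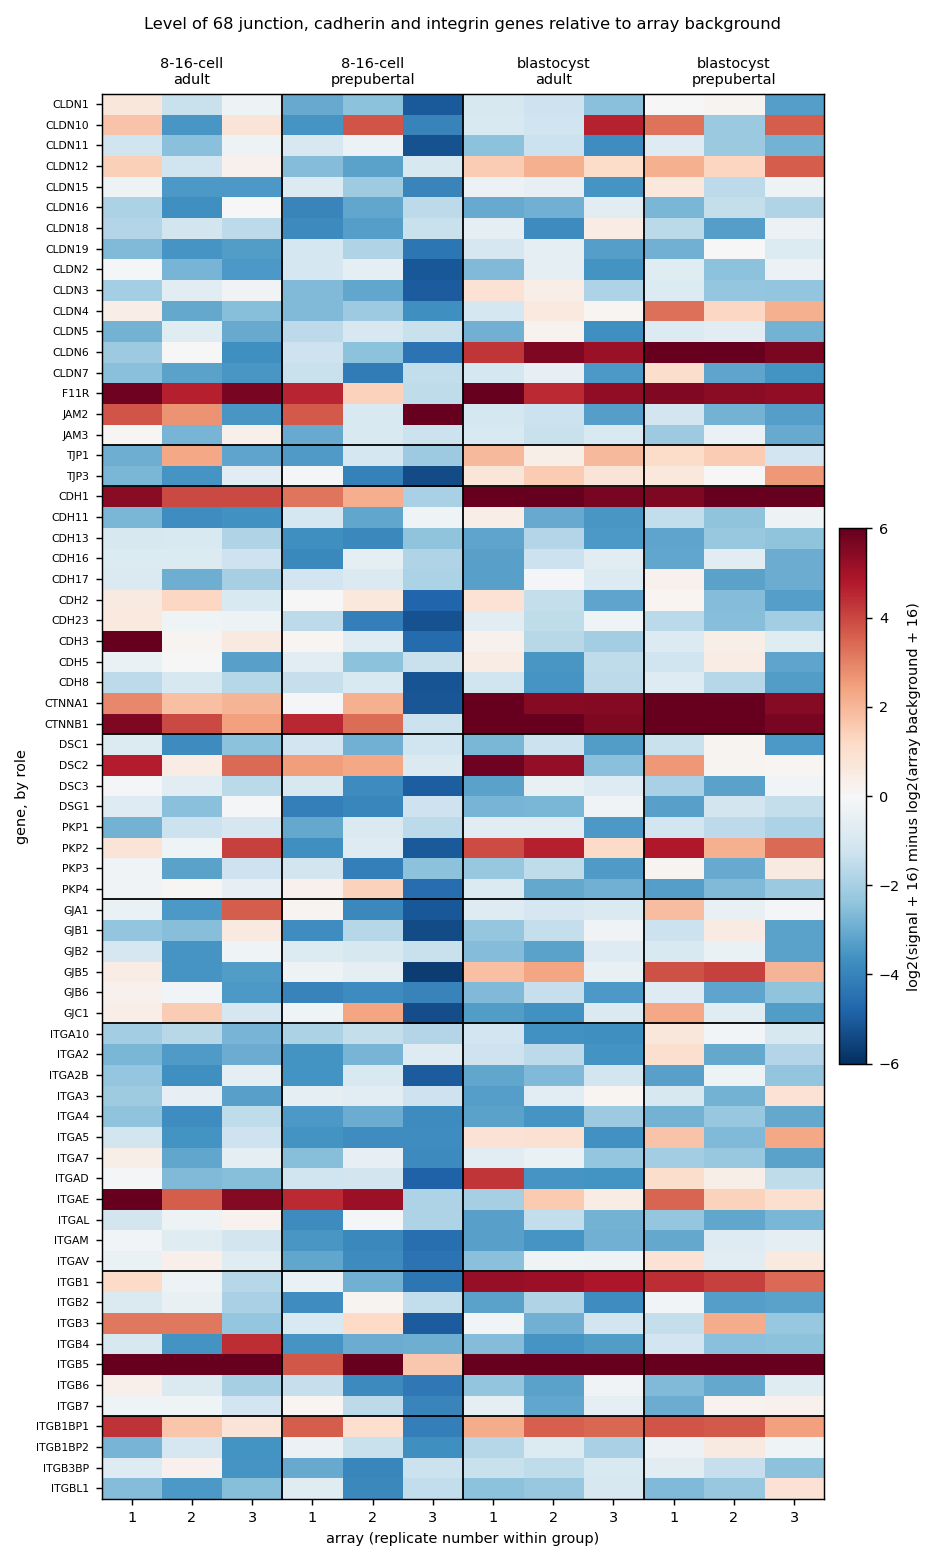
Level of the 68 genes on the 12 arrays, as log2(signal + 16) minus the log2 of that array's background level with the same 16 added; white is background, red is above and blue below, and colours stop at 6 in either direction. Genes are grouped by role and separated by lines (from the top: tight junction membrane proteins, tight junction scaffolds, adherens junction, desmosome, gap junction, integrin alpha, integrin beta, other ITGB symbols). CLDN6 and ITGB1 are red on all 6 blastocyst arrays, and ITGB5 is red on all 12 arrays.

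Between the 8-16-cell stage and the blastocyst, the genes that rose were parts of the adherens junction, 1 claudin, the scaffold TJP3, the plakophilin PKP2, the connexin GJB5 and the integrin beta chains ITGB1 and ITGB5. JAM2 and the integrin alpha chain ITGAE fell. In adult donors limma called 3 of the 68 genes at an adjusted p under 0.05, CLDN6 and ITGB1 as higher and ITGAE as lower, which is 4.41% against 2.13% of all probe sets (1.26% higher and 0.87% lower). In prepubertal donors it called 7 (10.3% against 2.34%, of which 1.43% higher and 0.912% lower), with CLDN6, ITGB1, CDH1, CTNNA1, ITGB5 and PKP2 higher and JAM2 lower. Averaging the stage difference over both donor groups, a comparison added after seeing the data, called 11 (16.2% against 6.4%, of which 3.9% higher and 2.51% lower): the 6 higher and the 2 lower genes above, and CTNNB1, GJB5 and TJP3 as higher. Because the genes were taken by their brightest probe set, the same share was also taken over all 9155 genes represented in that way, and it was 3.17%, 3.95% and 9.87% for the same comparisons. The median difference of the 68 genes was -0.24 when averaged over donors, against -0.17 over all probe sets. Without prepubertal 8-16-cell replicate 3 the calls numbered 5 in adult donors, 3 in prepubertal donors and 11 on average. In that fit, in the same order, 19.1%, 19.1% and 27.9% of the genes had a limma p under 0.05 before adjustment. Of all probe sets, 12.5%, 12.7% and 17.2% did. In adult donors 1 call was left without 8-16-cell replicate 3 or blastocyst replicate 1, and in prepubertal donors 4 were left without any 1 of the 3 prepubertal blastocyst arrays. The share of all probe sets called in these refits is not given here, so a changed count alone is no result about the genes.

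The plot of single arrays shows how far the stages lay apart in the 11 genes called on average. Over all 12 arrays, the 6 blastocyst values lay above all 6 values of 8-16-cell embryos in 5 genes, CDH1, CTNNA1, CTNNB1, CLDN6 and ITGB1, where 2.17% of all probe sets did so, and 0 genes were separated in the other direction, against 1.27%. Within adult donors the values at both stages were fully separated in 10 genes that were higher in blastocysts and 7 that were lower (9.55% and 7.62% of all probe sets), and within prepubertal donors in 10 and 4 (7.35% and 9.24%).

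**Figure D2:**
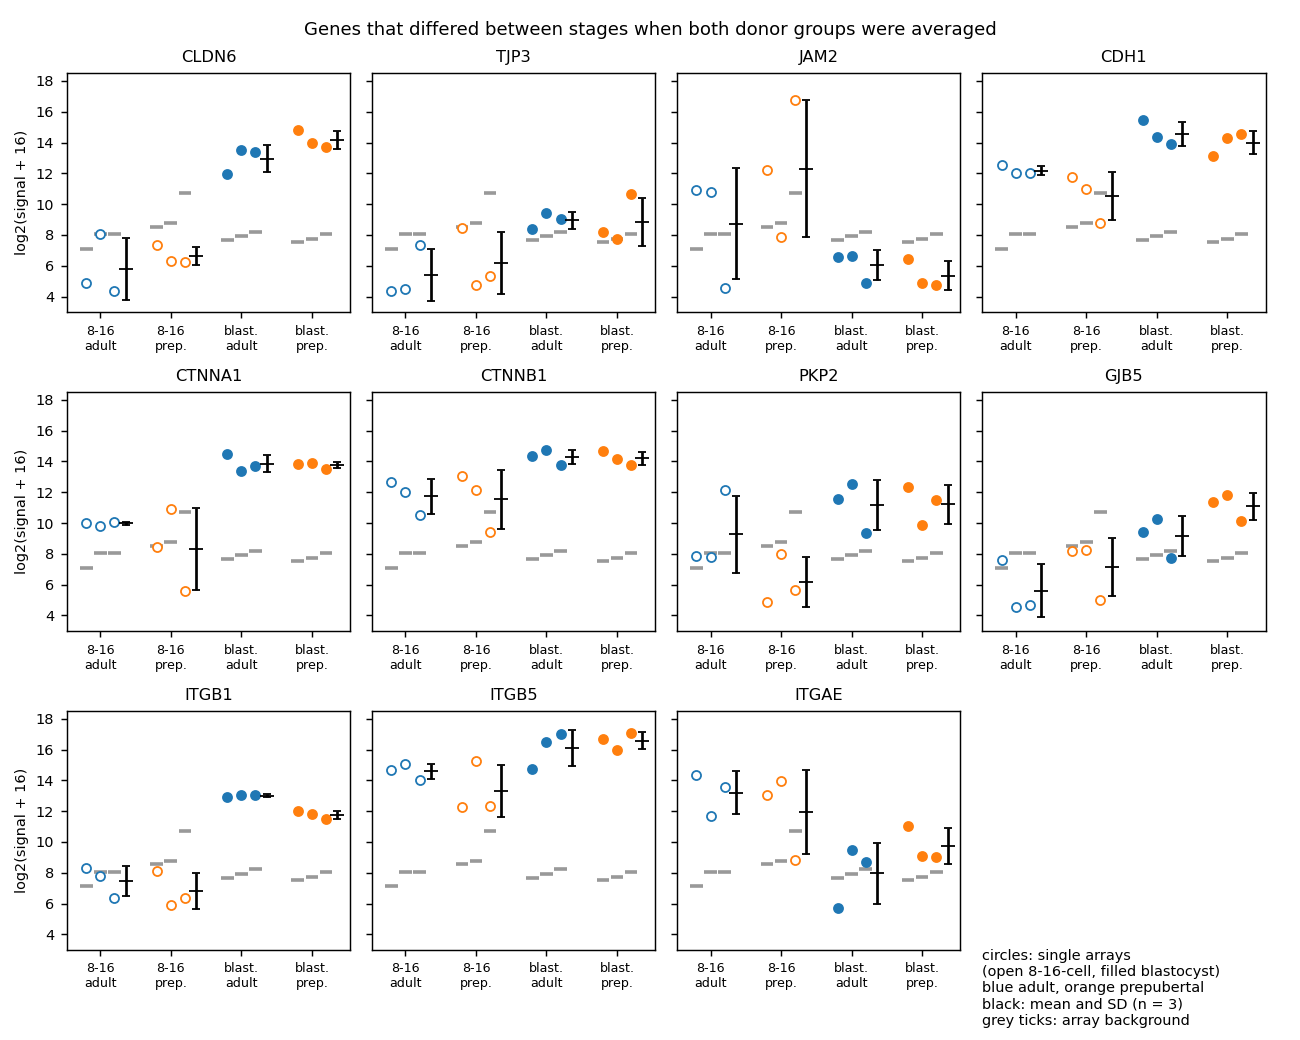
Values of the 11 genes called for the stage difference averaged over donors, as log2(signal + 16) on the vertical axis; each circle is an array (open 8-16-cell, filled blastocyst, blue adult, orange prepubertal), black bars are the mean and SD of 3 arrays, and grey ticks are the background level of each array. In CLDN6 and ITGB1 all 6 blastocyst circles lie above all 6 of the 8-16-cell embryos, and the highest circle of JAM2 is prepubertal 8-16-cell replicate 3.

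CDH1 encodes E-cadherin, the adhesion receptor of the compacting embryo. Its values were 12.51, 12.01 and 12.03 in adult 8-16-cell embryos, 11.77, 10.97 and 8.78 in prepubertal ones, 15.44, 14.34 and 13.92 in adult blastocysts and 13.15, 14.31 and 14.53 in prepubertal blastocysts. Every blastocyst array was thus above every 8-16-cell array, and the transcript was already above background in 5 of 6 8-16-cell pools. The blastocyst mean was higher by 2.93 on average (SE 0.74, adjusted p = 0.00344), by 3.48 in prepubertal donors (SE 1.04, adjusted p = 0.0435) and by 2.38 in adult donors (SE 1.04, adjusted p = 0.304). Without prepubertal 8-16-cell replicate 3 the prepubertal difference was 2.62 (adjusted p = 0.105) and the average was 2.50 (adjusted p = 0.00189). The prepubertal call was also lost without any 1 of the 6 blastocyst arrays, with adjusted p up to 0.199, and in fits without trend, with array weights or of the prepubertal groups alone, with adjusted p up to 0.114. A further CDH1 probe set was above background on 0 of 6 arrays of 8-16-cell embryos and on 6 of 6 of blastocysts, and its average difference was 4.12, at least 3.76-fold against the background level (adjusted p = 0.00382).

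CTNNA1 encodes alpha-catenin, which ties the cadherin complex to actin. It read 10.01, 9.84 and 10.07 in adult 8-16-cell embryos and 8.47, 10.92 and 5.56 in prepubertal ones, then 14.50, 13.37 and 13.72 in adult blastocysts and 13.80, 13.89 and 13.53 in prepubertal blastocysts. The 6 blastocyst pools lay close together, between 13.37 and 14.50, above every 8-16-cell pool. The average difference was 4.66 (SE 0.89, adjusted p = 4.4e-05), with 5.42 in prepubertal donors (SE 1.26, adjusted p = 0.00336) and 3.89 in adult donors (SE 1.26, adjusted p = 0.0775). The prepubertal call held without replicate 3 of its 8-16-cell embryos, at 4.04 (adjusted p = 0.0247), as did the average, at 3.97 (adjusted p = 4.24e-05), and the adult difference of 3.89 then passed (adjusted p = 0.0104).

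CTNNB1 encodes beta-catenin, which binds the cadherin tail and also carries Wnt signals. The arrays gave 12.69, 12.01 and 10.51 in adult 8-16-cell embryos, 13.08, 12.14 and 9.42 in prepubertal ones, 14.34, 14.71 and 13.80 in adult blastocysts and 14.65, 14.16 and 13.76 in prepubertal ones. The stages did not overlap, and the difference was 2.55 in adult (SE 1.02, adjusted p = 0.231) and 2.65 in prepubertal donors (SE 1.02, adjusted p = 0.174). Without prepubertal 8-16-cell replicate 3, its lowest value, the prepubertal difference was 1.58 (adjusted p = 0.463), the average 2.06 (adjusted p = 0.0135), and the adult one passed (adjusted p = 0.0469). With all arrays only the average of 2.60 passed (SE 0.72, adjusted p = 0.0108). It was lost without prepubertal blastocyst replicate 1 (2.48, adjusted p = 0.0523) and in a fit without a trend of the variance (2.60, adjusted p = 0.0538).

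The other 9 genes grouped by symbol under adherens junction, all cadherins, were not called in any comparison. They were above background on at most 6 of the 12 arrays, and their average differences ran from -1.74 (CDH3) to 0.02 (CDH11), with 7 of 9 above background on at most 2 arrays. CDH3, which encodes P-cadherin and neighbours CDH1 in the genome, had 1 high array, 13.33 in adult 8-16-cell replicate 1, where the other 11 arrays lay between 6.12 and 8.67. N-cadherin (CDH2) was above background on 5 arrays and differed by -1.72 (adjusted p = 0.393).

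CLDN6, a claudin of early epithelia, had the largest stage difference of the 68 genes. Its values were 4.91, 8.07 and 4.38 in adult 8-16-cell embryos and 7.32, 6.32 and 6.27 in prepubertal ones, against 11.95, 13.49 and 13.39 in adult blastocysts and 14.84, 13.99 and 13.71 in prepubertal blastocysts. A single array of the 6 from 8-16-cell embryos was above background, and all 6 from blastocysts were. The difference was 7.16 in adult donors (SE 1.43, adjusted p = 0.000432) and 7.54 in prepubertal donors (SE 1.43, adjusted p = 0.000123). In prepubertal donors, where the earlier stage was at background throughout, this is at least 28.6-fold, set against the background level. The average over donors was 7.35 (SE 1.01, adjusted p = 4.43e-09). Without prepubertal 8-16-cell replicate 3 the prepubertal difference was 7.36 (adjusted p = 0.000349) and the average 7.26 (adjusted p = 4.98e-09). With all signals raised to the highest background, 1664, the adult difference was 2.23 and no longer passed (adjusted p = 0.114). Another CLDN6 probe set was at background on all 12 arrays and differed by 0.71, so the call rests on 1 probe set. TNFRSF12A, which overlaps CLDN6 in the RefSeq table, had an average difference of 0.79 (adjusted p = 0.798).

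CLDN4, a sealing claudin, lay at 7.51, 4.97 and 5.51 in adult 8-16-cell embryos, 5.91, 6.62 and 7.03 in prepubertal ones, 6.63, 8.47 and 8.32 in adult blastocysts and 10.87, 8.96 and 10.23 in prepubertal blastocysts. Only the prepubertal blastocysts were above background on all 3 arrays, and the average difference of 2.66 did not pass (SE 1.01, adjusted p = 0.104). CLDN12 was above background on every blastocyst array and on 2 of 6 earlier ones, with a difference of 2.33 (adjusted p = 0.214). CLDN10 varied between pools of every group, from 4.55 to 12.82 over the 12 arrays, and differed by 1.31 (adjusted p = 0.628). The remaining 10 claudins were above background on at most 3 arrays each, and their differences lay between -1.15 and 0.73.

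F11R encodes JAM-A, an adhesion molecule of tight junctions. It was bright at both stages, with 12.92, 12.71 and 13.75 in adult 8-16-cell embryos, 13.11, 10.17 and 9.19 in prepubertal ones, 13.93, 12.38 and 13.53 in adult blastocysts and 13.10, 13.14 and 13.42 in prepubertal blastocysts. Apart from 2 prepubertal 8-16-cell pools the values overlapped, and the average difference was 1.28 (SE 0.76, adjusted p = 0.418).

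JAM2, a relative of F11R, was the 1 tight junction gene that fell. Its values were 10.89, 10.76 and 4.56 in adult 8-16-cell embryos and 12.23, 7.88 and 16.79 in prepubertal ones, against 6.59, 6.63 and 4.89 in adult blastocysts and 6.44, 4.88 and 4.78 in prepubertal blastocysts. The 8-16-cell pools were spread widely, 4 of 6 above background, while all 6 blastocyst pools were at background. The highest value came from prepubertal 8-16-cell replicate 3, the array of high background. The difference was -6.93 in prepubertal donors (SE 1.53, adjusted p = 0.00167, at least 22.9-fold lower) and -2.70 in adult donors (SE 1.53, adjusted p = 0.538). Averaged over donors it was -4.82 (SE 1.08, adjusted p = 0.000735, at least 6.33-fold lower). Both folds include the 16.79 of replicate 3 and were not taken without it, so they are no lower limit for the other arrays. Without replicate 3 the prepubertal difference was -4.69 and no longer passed (adjusted p = 0.105), and the average was -3.69 (adjusted p = 0.0153). A further JAM2 probe set was above background on 3 of 6 arrays of 8-16-cell embryos and 0 of 6 of blastocysts, with an average of -2.53 (adjusted p = 0.105). JAM3 was above background on 2 arrays and differed by -0.87 (adjusted p = 0.74).

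The scaffolds TJP1 and TJP3 (ZO-1 and ZO-3) link tight junction membrane proteins to actin. TJP3 read 4.34, 4.52 and 7.36 in adult 8-16-cell embryos and 8.45, 4.73 and 5.33 in prepubertal ones, 8.39, 9.44 and 9.01 in adult blastocysts and 8.19, 7.76 and 10.66 in prepubertal blastocysts. All 6 blastocyst arrays were above background and none of the 6 earlier ones, although 1 prepubertal 8-16-cell pool overlapped the blastocysts in value. The average difference was 3.12 (SE 1.0, adjusted p = 0.0371), which set against the background level is at least 1.29-fold. The call was lost without prepubertal 8-16-cell replicate 3 (2.91, adjusted p = 0.0782) and with 64 in place of 16 added to the signals (2.19, adjusted p = 0.0612). It was also lost without adult 8-16-cell replicate 1 or 2, prepubertal 8-16-cell replicate 2, adult blastocyst replicate 2 or 3, or prepubertal blastocyst replicate 3, at 2.67 to 3.10 with adjusted p up to 0.127. The 2 other TJP3 probe sets differed by 0.27 and -1.08. TJP1 lay at 4.19, 10.37 and 4.91, then 5.12, 7.74 and 8.53 in adult and prepubertal 8-16-cell embryos, and at 9.60, 8.26 and 10.16, then 8.66, 9.23 and 6.92 in adult and prepubertal blastocysts. Its 5 blastocyst arrays above background stood against 1 of the earlier stage, but adult 8-16-cell replicate 2 held the highest value of all, and the difference of 2.00 did not pass (SE 1.04, adjusted p = 0.318).

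Among desmosomal genes PKP2, a plakophilin of the desmosome plaque, was the 1 called. It gave 7.86, 7.80 and 12.16 in adult 8-16-cell embryos, 4.85, 7.99 and 5.66 in prepubertal ones, 11.59, 12.56 and 9.39 in adult blastocysts and 12.35, 9.85 and 11.49 in prepubertal blastocysts. Adult 8-16-cell replicate 3 was as high as the blastocysts, and the other 5 pools of that stage were below all of them. The difference was 5.06 in prepubertal donors (SE 1.47, adjusted p = 0.0356, at least 3.69-fold), 1.90 in adult donors (SE 1.47, adjusted p = 0.748) and 3.48 on average (SE 1.04, adjusted p = 0.0209). A further PKP2 probe set had a like average, 3.53 (adjusted p = 0.021), but divided the other way between donors, with 5.28 in adult (adjusted p = 0.0312) and 1.78 in prepubertal donors (adjusted p = 0.657). Without prepubertal 8-16-cell replicate 3 the prepubertal difference of the first probe set was 4.81 (adjusted p = 0.0706), and without its replicate 1 or any 1 prepubertal blastocyst array it was 4.40 to 5.75 with adjusted p up to 0.219. It also missed the threshold with 64 added to the signals (4.22, adjusted p = 0.0667) and with array weights (4.95, adjusted p = 0.0543). The average was 3.36 without prepubertal 8-16-cell replicate 3 (adjusted p = 0.0245) and was lost without adult 8-16-cell replicate 1 or 2, prepubertal 8-16-cell replicate 1, adult blastocyst replicate 2 or prepubertal blastocyst replicate 1, at 3.12 to 3.20 with adjusted p up to 0.0886.

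The desmosomal cadherin DSC2 was present at both stages, at 11.80, 8.47 and 11.45 in adult 8-16-cell embryos, 11.03, 11.08 and 9.83 in prepubertal ones, 13.50, 13.18 and 5.69 in adult blastocysts and 10.13, 7.91 and 8.20 in prepubertal blastocysts. Adult blastocysts held both its highest values and its lowest, and the difference of -0.84 did not pass (SE 1.02, adjusted p = 0.775). PKP4, a plakophilin relative also found at adherens junctions, had all its blastocyst values below those of the 8-16-cell embryos within each donor group. It was above background on 3 of the earlier arrays, and its average of -2.57 did not pass (SE 0.93, adjusted p = 0.0814), but did without prepubertal 8-16-cell replicate 3 (-3.13, adjusted p = 0.0276). DSC1, DSC3, DSG1, PKP1 and PKP3 were above background on 0 to 2 arrays, with differences from -0.64 to -0.22.

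GJB5, a connexin known from trophoblast, read 7.57, 4.53 and 4.70 in adult 8-16-cell embryos, 8.21, 8.22 and 5.00 in prepubertal ones, 9.45, 10.28 and 7.76 in adult blastocysts and 11.36, 11.81 and 10.11 in prepubertal blastocysts. Within each donor group the blastocysts were above the 8-16-cell embryos on every array. It was above background on 1 of the 8-16-cell arrays and 5 of the blastocyst arrays, and adult blastocyst replicate 3 was at background. The average difference was 3.76 (SE 1.04, adjusted p = 0.0104), with 3.56 in adult (SE 1.47, adjusted p = 0.256) and 3.95 in prepubertal donors (SE 1.47, adjusted p = 0.15). It was called without prepubertal 8-16-cell replicate 3 too (3.22, adjusted p = 0.0439).

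GJA1 (connexin 43) lay at 6.70, 4.61 and 11.69 in adult 8-16-cell embryos, 8.69, 4.92 and 5.62 in prepubertal ones, 6.88, 6.88 and 7.35 in adult blastocysts and 9.40, 7.29 and 7.98 in prepubertal blastocysts. It was above background on 3 arrays, 1 in each group but the adult blastocysts, and differed by 0.59 (SE 1.02, adjusted p = 0.856). GJC1, GJB1, GJB2 and GJB6 were above background on 0 to 4 arrays and differed by -1.91 to 0.53, without a call.

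ITGB1 is the beta chain shared by most fibronectin and laminin receptors. Its values were 8.28, 7.76 and 6.37 in adult 8-16-cell embryos and 8.15, 5.91 and 6.36 in prepubertal ones, against 12.91, 13.05 and 13.05 in adult blastocysts and 12.00, 11.83 and 11.50 in prepubertal blastocysts. The 3 adult blastocyst pools were nearly identical, and the stages were separated by more than 3 log2 units in both donor groups. The difference was 5.54 in adult donors (SE 1.43, adjusted p = 0.014) and 4.97 in prepubertal donors (SE 1.43, adjusted p = 0.0327, at least 5.38-fold), and 5.25 on average (SE 1.01, adjusted p = 5.24e-05). Without prepubertal 8-16-cell replicate 3 the prepubertal value was 4.75 (adjusted p = 0.0558) and the average 5.14 (adjusted p = 4.37e-05). In adult donors the call was lost without 8-16-cell replicate 3 or any 1 adult blastocyst array, with adjusted p up to 0.0876. In prepubertal donors it was lost without 8-16-cell replicate 2 or any 1 prepubertal blastocyst array too, with adjusted p up to 0.147.

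ITGB5, the chain that pairs with ITGAV in a vitronectin receptor, was bright throughout. It read 14.64, 15.05 and 14.05 in adult 8-16-cell embryos, 12.28, 15.25 and 12.34 in prepubertal ones, 14.76, 16.46 and 17.01 in adult blastocysts and 16.68, 15.96 and 17.05 in prepubertal blastocysts. Adult donors overlapped between stages by 1 blastocyst array, and prepubertal donors did not overlap. The difference was 3.27 in prepubertal donors (SE 0.69, adjusted p = 0.000934), 1.49 in adult donors (SE 0.69, adjusted p = 0.361) and 2.38 on average (SE 0.49, adjusted p = 0.000179). The test of whether the stage difference depended on the donor gave 1.78 (SE 0.98, adjusted p = 0.935), and 1.31 without prepubertal 8-16-cell replicate 3 (adjusted p = 0.958). Without replicate 3 the prepubertal value was 2.80 (adjusted p = 0.00055) and the average 2.15 (adjusted p = 1.07e-05). In a fit without a trend of the variance both differences were the same but neither passed, with adjusted p of 0.151 in prepubertal donors and 0.0827 on average. The same held with the floor at the highest background, which lies under all ITGB5 values (adjusted p of 0.164 and 0.0829). A dimmer ITGB5 probe set was above background on 1 array and differed by -0.10.

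The other 5 beta chains, ITGB2, ITGB3, ITGB4, ITGB6 and ITGB7, had average differences from -1.86 to -0.63 and no call. They were above background on 1 to 4 arrays. ITGB4 was high on a single array, 12.50 in adult 8-16-cell replicate 3, where the remaining 11 lay between 4.36 and 7.78. That same array held the highest value of GJA1.

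ITGAE, the alpha chain known from lymphocytes that bind E-cadherin, was the 1 integrin chain that fell. It read 14.36, 11.67 and 13.59 in adult 8-16-cell embryos and 13.02, 13.93 and 8.85 in prepubertal ones, then 5.69, 9.49 and 8.67 in adult blastocysts and 11.06, 9.11 and 9.05 in prepubertal blastocysts. In adult donors every 8-16-cell pool was above every blastocyst pool. In prepubertal donors 8-16-cell replicates 1 and 2 lay above all 3 blastocyst pools, and replicate 3, at 8.85, lay below all 3. The difference was -5.26 in adult donors (SE 1.37, adjusted p = 0.0155), -2.20 in prepubertal donors (SE 1.37, adjusted p = 0.499) and -3.73 on average (SE 0.97, adjusted p = 0.00519). The average was -4.50 without prepubertal 8-16-cell replicate 3 (adjusted p = 0.000142). The adult call was lost without adult 8-16-cell replicate 1 or 3 or adult blastocyst replicate 1, at -5.07 to -4.12 with adjusted p up to 0.175. ITGAE overlaps HASPIN, a kinase gene of germ cells, in the RefSeq table, and no probe set used here names HASPIN, so the signal of the 2 genes was not separated.

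The other 11 alpha chains were dim: 3 of the 12 were at background on all arrays and 8 above background on at most 2. ITGA5, which with ITGB1 forms the fibronectin receptor, lay at 6.02, 4.46 and 6.84 in adult 8-16-cell embryos, 4.96, 5.07 and 7.00 in prepubertal ones, 8.54, 8.83 and 4.56 in adult blastocysts and 9.28, 5.08 and 10.39 in prepubertal blastocysts. It was above background on 4 of 6 blastocyst arrays and 0 of 6 earlier ones, and differed by 2.06 (SE 0.96, adjusted p = 0.237). Both other ITGA5 probe sets had the opposite sign, at -0.37 and -0.75, without a call. ITGAV read 6.69, 8.36 and 7.35, then 5.40, 5.01 and 6.30 in adult and prepubertal 8-16-cell embryos, and 5.14, 7.66 and 7.92, then 8.42, 7.09 and 8.68 in adult and prepubertal blastocysts. It was above background on 3 arrays, and its difference of 0.97 did not pass (adjusted p = 0.706). The alpha chains at background on all 3 arrays of a group numbered 8 in adult and 11 in prepubertal 8-16-cell embryos, and 8 in adult and 5 in prepubertal blastocysts.

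Of the 4 further genes, ITGB1BP1, which binds the tail of the beta 1 chain, was above background on 11 arrays. Its average difference of 1.29 did not pass (adjusted p = 0.578). ITGB1BP2, ITGB3BP and ITGBL1 were each above background on 1 array and differed by -0.02 to 0.69.

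The stage differences of the 2 donor groups come from different arrays, and the plot of one against the other shows them gene by gene. Over the 68 genes Pearson's r between them was 0.70 and Spearman's rho 0.55, and 46 of 68 (67.6%) had the same sign. Over all 24016 probe sets the same figures were 0.45, 0.32 and 58.4%. These are descriptions across genes, which are not independent and share the depth and background of their arrays.

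**Figure D3:**
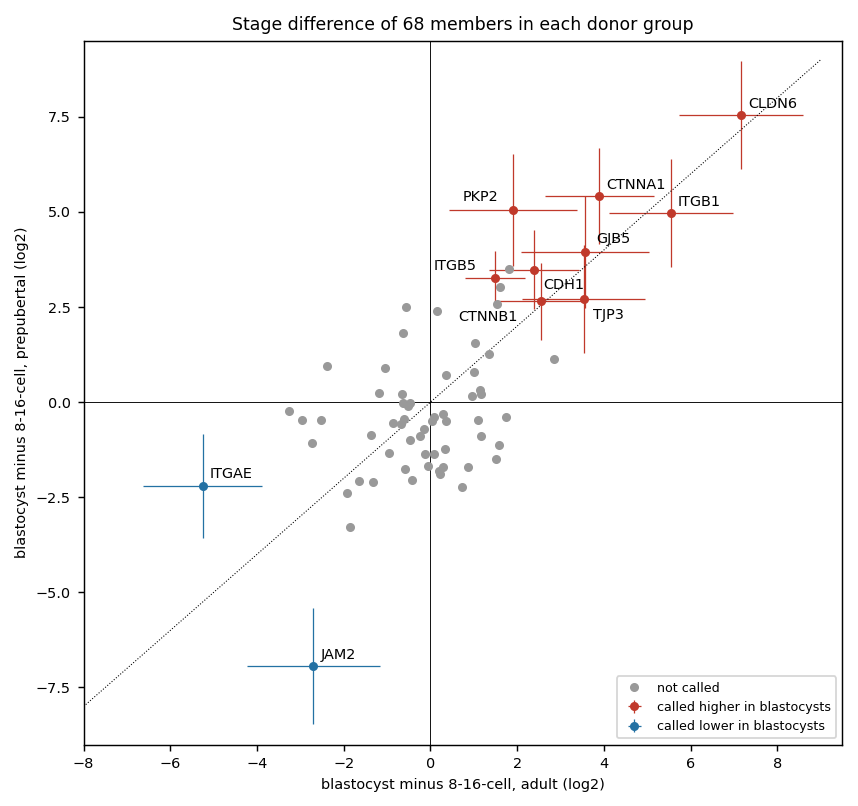
Blastocyst minus 8-16-cell difference of each of the 68 genes, in log2 units, in adult donors (horizontal) and prepubertal donors (vertical); bars are standard errors, drawn for the 11 genes called on the average of both, and the dotted line marks equal differences. CLDN6 lies near the line at 7.16 and 7.54, PKP2 at 1.90 and 5.06 lies above it, and JAM2 and ITGAE are the 2 called genes in the lower left.

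The probe sets that were not used gave a further view of the same genes. There were 41 over 33 genes, and 17 of these probe sets never rose above background. For the average stage difference 2 of the 41 were called, 1 each of CDH1 and PKP2, with the sign of the probe set used. Of all probe sets, 6.4% were called in that comparison. The unused probe sets of CLDN6, ITGB5, JAM2 and TJP3, which were called by the probe set used, were not called.

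Other genes of the same structures, counted from lists of scaffold, plaque, focal adhesion and matrix genes, were read at the same stages. They too were taken by their brightest probe set. Of all 9155 genes taken in that way, 9.87% were called on average in either direction, the share to set beside the count of each list. Of 13 measured junction scaffold and polarity genes, 3 were higher in blastocysts on average and 0 lower, where 6.4% of all probe sets were called: the tight junction plaque gene CGN by 3.89, at least 2.62-fold (SE 1.04, adjusted p = 0.00666), the polarity kinase PRKCI by 4.93 (SE 1.04, adjusted p = 0.000261) and the adhesion molecule EPCAM by 3.90 (SE 0.87, adjusted p = 0.00076). The median of these 13 genes was 0.22. Of 12 desmosome and adherens plaque genes, 4 were higher and 1 lower, with a median of 1.01. PERP, a desmosomal membrane protein, was higher by 5.67 (SE 1.0), the actin linker MSN by 6.21 (SE 0.98), EZR by 1.31 (SE 0.39) and the GTPase RAC1 by 4.14 (SE 0.89), while CTNNAL1, a relative of alpha-catenin, was lower (-4.89, SE 1.0). Their adjusted p ran from 4.22e-07 (MSN) to 0.018 (EZR).

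The share of 9.87% of all genes called on average also stands beside the next 2 lists. Of 18 focal adhesion genes, 4 were higher and 1 lower, with a median of 0.68. Zyxin (ZYX), at background on all 6 arrays of 8-16-cell embryos, was higher by 8.21 (SE 1.02, adjusted p = 6.19e-11), at least 38.7-fold. ACTN1, the tetraspanin CD9 and BSG were higher by 4.34, 4.01 and 3.45, and the kindlin FERMT2 was lower (-3.74, adjusted p = 0.00255). Of 15 matrix ligands of integrins, 3 were higher and 0 lower, with a median of 0.79: fibronectin (FN1) by 7.63, at least 73.2-fold (SE 0.94, adjusted p = 4.57e-11), nidogen (NID1) by 6.31, at least 13.0-fold (SE 1.04, adjusted p = 1.45e-06), and the laminin chain LAMB1 by 3.99, at least 4.40-fold (SE 1.04, adjusted p = 0.00552). All 3 ligands were at background on the 6 earlier arrays and above it on the 6 blastocyst arrays, as was the case for CGN.

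Markers of other cells that could be in the pools were read beside these changes. The summed signal of 7 trophectoderm markers, on the log2 scale, ran from 8.58 to 10.85 over the 8-16-cell arrays and from 14.56 to 15.88 over the blastocyst arrays. That of 7 oocyte markers ran from 15.00 to 18.02 and from 7.87 to 10.74. Of the inner cell mass markers, POU5F1 and SOX2 were measured and 0 of 2 called. Of 17 cumulus and granulosa markers, 7 were at background on all arrays, PTGS2 was higher in blastocysts (7.64, at least 22.0-fold, adjusted p = 2.37e-09) and STAR lower (-3.57, adjusted p = 0.0168), and their sum lay between 12.25 and 14.36 and between 13.24 and 14.97. Of 7 blood and 7 sperm markers 0 were called, and none was above background on all 3 arrays of any group. The blood sum lay between 9.35 and 11.03 at the 8-16-cell stage and 8.36 and 9.62 in blastocysts, and the sperm sum between 8.38 and 11.66 and between 8.59 and 10.64. The part of cell composition in the stage differences was not tested.

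Between donors of different age, limma called 0 of the 68 genes at either stage. At the 8-16-cell stage, where 0.0208% of all probe sets were called, 8 genes had an unadjusted p under 0.05 (11.8% against 9.02% of all probe sets), and the smallest adjusted p was 0.39. In blastocysts, where 0% were called, 1 gene had an unadjusted p under 0.05 (1.47% against 3.68%). The median difference of the genes, prepubertal minus adult, was 0.46 against 0.59 over all probe sets at the 8-16-cell stage, and 0.16 against 0.16 in blastocysts. The 3 arrays of the donor groups did not overlap in 5 genes that were higher and 5 lower in prepubertal 8-16-cell embryos (10% and 2.67% of all probe sets), and in 5 and 3 genes in blastocysts (6.04% and 3.78%). At the 8-16-cell stage without prepubertal replicate 3, 1 gene had an unadjusted p under 0.05 (1.47% against 6.24% of all probe sets), and the smallest adjusted p was 0.791.

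The interval of a donor difference was wide, with a median half-width of 2.55 log2 units at 95% confidence, so the absence of a call does not show that the donors were alike. In blastocysts E-cadherin differed by -0.57 (-2.62 to 1.48), CTNNA1 by -0.12 (-2.60 to 2.35), CTNNB1 by -0.09 (-2.11 to 1.93), F11R by -0.06 (-2.18 to 2.06) and ITGB5 by 0.49 (-0.88 to 1.86). CLDN6 was higher on every prepubertal blastocyst array than on every adult one, by 1.24 (-1.58 to 4.05), and CLDN4 likewise by 2.22 (-0.60 to 5.03). ITGB1 was lower on every prepubertal blastocyst array, by -1.23 (-4.05 to 1.59). These are orders of 3 against 3 arrays without a call, all with adjusted p of 1.0 by limma.

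**Figure D4:**
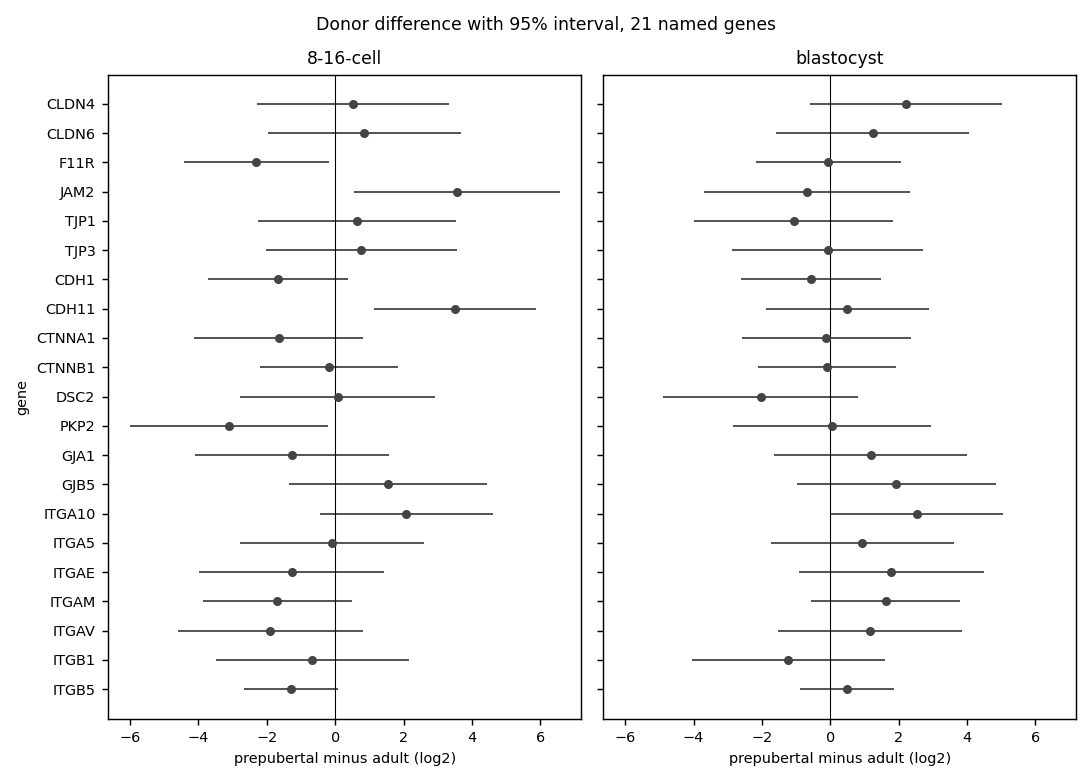
Prepubertal minus adult difference in log2 units (horizontal) with its 95% interval for the 21 genes named by rule, at the 8-16-cell stage (left) and in blastocysts (right). Most intervals reach across 0. At the left those of JAM2 and CDH11 lie above 0 and those of F11R and PKP2 below it, without passing the adjusted threshold. Each gene is shown by 1 probe set. Other probe sets of CDH1, CDH11, ITGA5, ITGAV, ITGB5, PKP2 and TJP1 had the opposite sign at the 8-16-cell stage.

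At the 8-16-cell stage CDH11, a mesenchymal cadherin, had the smallest p, with 4.34, 4.34 and 4.42 in adult and 7.50, 5.66 and 10.45 in prepubertal embryos. None of these 6 arrays was above background, so the difference of 3.50 (SE 1.21, unadjusted p = 0.00412 and adjusted p = 0.39 by limma) has no fold. Without prepubertal replicate 3 it was 2.21 (adjusted p = 0.808). Another CDH11 probe set, at background on all arrays, had the opposite sign (-0.36). The arrays' background levels were also higher in all 3 prepubertal pools (356, 424 and 1664) than in the adult ones (122, 248 and 251), and their part in the difference was not tested. JAM2 was higher in prepubertal embryos by 3.56 (0.55 to 6.57, adjusted p = 0.482), and F11R and PKP2 lower by -2.31 (-4.43 to -0.18, adjusted p = 0.518) and -3.11 (-6.01 to -0.21, adjusted p = 0.522). The donor groups overlapped in each of these genes. Without prepubertal replicate 3 these differences were 1.32 for JAM2 (adjusted p = 0.937), -1.49 for F11R (adjusted p = 0.855) and -2.86 for PKP2 (adjusted p = 0.808). With all arrays, other probe sets gave 2.58 for JAM2 and -1.43 for F11R. For PKP2 the other probe set had the opposite sign, at 3.42 (SE 1.49, adjusted p = 0.495 by limma). CDH1 was lower on every prepubertal 8-16-cell array than on every adult one, by -1.67 (-3.72 to 0.38), and by -0.81 without replicate 3 (adjusted p = 0.926). Another CDH1 probe set, at background on all 6 of these arrays, had the opposite sign (0.18). The prepubertal 8-16-cell arrays had brighter hybridization controls, whose part in the difference was not tested.

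ITGA10, a collagen receptor chain, had the smallest p in blastocysts. It read 6.50, 4.25 and 4.55 in adult and 8.22, 7.57 and 7.10 in prepubertal blastocysts, with 1 of the 6 arrays above background, a difference of 2.53 (SE 1.28, unadjusted p = 0.0496 and adjusted p = 1.0 by limma). Another ITGA10 probe set, at background on all arrays, had the opposite sign in blastocysts (-0.46). Whether the donor difference changed between stages was tested with the interaction of the same fit, in which 0% of all probe sets and 0 of the 68 genes were called. At an unadjusted p under 0.05 there was 1 gene (1.47% against 5.44%), ITGAM, an alpha chain of white blood cells, at 3.32 (SE 1.56, adjusted p = 0.913), and it lay at background on all 12 arrays. For JAM2 the interaction was -4.24 (-8.49 to 0.02, adjusted p = 0.917), and -1.99 without prepubertal 8-16-cell replicate 3 (adjusted p = 0.988).

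Genes that lie side by side in the genome did not share 1 pattern. CDH3 was not called beside CDH1, and CLDN3, next to CLDN4, was above background on 2 arrays and differed by 0.57 (adjusted p = 0.843). DSG1, DSC1, DSC2, DSC3 and CDH2 follow each other in the RefSeq table, and all but DSC2 were above background on 0 to 5 arrays, against 10 for DSC2. In the RefSeq table CTNNA1 overlaps LRRTM2, F11R overlaps TSTD1, ITGB1BP1 overlaps ASAP2 and CDH3 overlaps ZFP90, and signals of such pairs were not told apart here.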

How the data were processed

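Total RNA of 12 embryo pools was amplified (WT-Ovation Pico), labelled with biotin and hybridized to Affymetrix bovine arrays, per the labels' protocols. The authors deposited linear signal intensities, 1 for each probe set and array, made with MAS5 per the submitters' processing notes, which as used here give no version or settings. Of 24128 probe sets, 112 controls were left out and 24016 tested. Trimmed array means lay between 500.19 and 500.31, and no further normalization was done.

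Values were analysed as log2(signal + 16) with a mean for each of 4 groups in limma 3.58.1 under R 4.3.3 (lmFit, eBayes with trend = TRUE; 8 residual and 196 prior degrees of freedom). Its two-sided moderated p was adjusted by Benjamini-Hochberg over all tested probe sets, with calls at 0.05, and the code was tested on simulated data. "At least" folds set a group at background to each array's background level. Whether the control sequences that define that level had been added to the samples was not checked; if so, it is too high. The number of arrays limits the precision, with a median SE of 1.30.

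Symbols came from the platform annotation (13292 probe sets name 1 gene, 86 several, 10638 none), and all 68 genes were found in the RefSeq table of assembly ARS-UCD2.0, used for names and neighbours. Genes given with values per array were those called in a comparison of groups, the 3 of smallest p per comparison, the 2 brightest of each role and a list of textbook genes of the compacting embryo. The genes, roles and lists were chosen with earlier results of these data known, and genes named outside this rule, after their values were seen.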

Additional observations from a re-analysis of the deposited data

How the results depend on the processing

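The alternatives were pseudocount 64, quantile normalization, a filter on low values (21983 probe sets kept), all signals floored at the highest array background, a replicate block, eBayes without trend, array weights, only the groups compared, and each array left out. No stage difference that was called with all arrays turned its sign under any of them, although TJP3 was 0 under the floor; differences that were not called were not followed. With the floor, which removes all differences below a signal of 1664 and changes the fitted variances, 2 genes were called for adult donors (CTNNA1, ITGB1; CLDN6 and ITGAE were lost), 3 genes were called for prepubertal donors (CDH1, CLDN6, CTNNA1) in place of 7, and 5 for the average (CDH1, CLDN6, CTNNA1, CTNNB1, ITGB1) in place of 11; the ITGB5 differences were unchanged there. Without trend ITGB5 and CDH1 were lost in prepubertal donors, and ITGB5 and CTNNB1 on average. With 1 array left out, the counts ran from 1 to 5 in adult donors, from 3 to 7 in prepubertal donors and from 9 to 11 on average; they were 5 and 3 without prepubertal 8-16-cell replicate 3, 1 without adult 8-16-cell replicate 3 or adult blastocyst replicate 1, and 4 without any 1 prepubertal blastocyst array. CLDN6, CTNNA1, CDH1 and ITGB1 were called on average under every alternative run, and CLDN6 and CTNNA1 in prepubertal donors too, while TJP3 and PKP2 were lost on average in 9 and 6 of 19. The donor comparisons and the interaction had 0 calls under all alternatives. Deviations from the group means of arrays with the same replicate number correlated at -0.025 to 0.049, and of arrays with other numbers at -0.072 to 0.044. These ranges overlap and were taken over all probe sets, many of them at background. They cannot show whether pools of the same number shared animals, sires or culture days. With the replicate block the counts were 3, 7 and 11 for the stage comparisons and 0 for the others, as without it. The share of all probe sets called under each alternative is not given here. Genes under background have no reliable order, and 14 of the 68 were under it on all arrays.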
